A study of Mus musculus with 6 samples.

Results

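The Dlk1-Dio3 locus was described in cardiomyocytes (CMs) that overexpressed serum response factor (SRF) and in control CMs. Its members were the 6 named genes of this imprinted region, Dlk1, Rtl1, Dio3, Meg3, Rian and Mirg, taken by symbol from the 23337 genes of a table of read counts. The genes were chosen from their levels in the same comparison, SRF-OE against GFP, so their differences between the groups are given as a description and without a test. Dlk1 is a transmembrane relative of the Notch ligands, Rtl1 is a protein derived from a retrotransposon Gag gene, and Dio3 is a deiodinase that inactivates thyroid hormone. All 3 are normally read mainly from the paternal chromosome. Meg3, Rian and Mirg are long noncoding RNAs of the maternal chromosome, with Rian the host of small nucleolar RNAs and Mirg the host of microRNAs. A methylation imprint between Dlk1 and Meg3 sets the pattern of both chromosomes. The locus is active in the embryo and is largely silenced in most tissues after birth, and in muscle its microRNA cluster is known as a target of the transcription factor MEF2A. The counts do not separate the chromosomes, so allelic origin could not be read here.

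Wild-type mice received AAV9-cTNT-SRF-2A-GFP or, as control, AAV9-cTNT-GFP on postnatal day 1, at 5e8 vg (viral genomes) per g of body weight. GFP+ CMs were released on postnatal day 14 by collagenase perfusion and sorted, and their polyA RNA was sequenced in bulk. Both groups therefore carried an AAV, and the cTNT (cardiac troponin T) promoter drives each transgene in CMs that took up the virus. The labels give 3 libraries a group, but the column headed as the first SRF-OE library holds gene lengths, so 2 SRF-OE libraries (replicates 2 and 3) and 3 GFP libraries (replicates 1, 2 and 3) were analysed. The sources do not say whether each library came from 1 animal, and any p below measures only the spread between these libraries.

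Total counts ran from 14137433 to 23159631 a library. CPM (counts per 1e6 counts, scaled with edgeR's TMM factors) is used for 1 gene across libraries, and TPM (the same share computed after division by gene length) for levels between genes. Srf was 360 and 748 CPM in the SRF-OE libraries and 67.2 and 85 CPM in GFP replicates 2 and 3. The remaining control, called the library labelled GFP1 throughout, had 338 CPM of Srf and so went against its label. Values are given with and without it. CM markers summed to 105211 and 94201 CPM in SRF-OE, 107536 CPM in the library labelled GFP1, and 135015 and 155389 CPM in GFP replicates 2 and 3, with 0 of the 10 markers at 0. Xist had 2545 and 1936 counts in replicate 2 of SRF-OE and GFP and 8 to 17 counts in the other libraries, while Y-linked Ddx3y had 0 counts in both of the former and 1271 to 2230 in the latter. The sex of the mice was thus balanced between the groups once the library labelled GFP1 was left out, but it cannot be told apart from the replicate number.

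On GRCm38 chromosome 12 the locus spans 829 kb, from the RefSeq start of Dlk1 to the end of Dio3. The gene positions below are from GENCODE M21. Dlk1 lies at 109452823 to 109463336, Meg3 at 109541001 to 109571726, Rian at 109603940 to 109661716, Mirg at 109729764 to 109749460 and Dio3 at 110279068 to 110281097, all on the plus strand. Rtl1 lies between Meg3 and Rian at 109589193 to 109600330 on the minus strand. Its length in the table, 5235 bp, equals its coding part at 109590169 to 109595403. That coding part is crossed on the plus strand by 6 microRNA hairpins, which give 11 of the 114 mature microRNAs of the locus listed by RefSeq (GRCm38.p6). These 11 are shown because each one is a full complement of Rtl1 RNA, so a library that does not keep strand cannot tell their precursor from Rtl1. Capitals mark the seed, bases 2 to 8.
mmu-miR-431-5p: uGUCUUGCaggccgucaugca
mmu-miR-431-3p: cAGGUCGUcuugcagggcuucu
mmu-miR-433-5p: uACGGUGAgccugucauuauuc
mmu-miR-433-3p: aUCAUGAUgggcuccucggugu
mmu-miR-127-5p: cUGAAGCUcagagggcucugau
mmu-miR-127-3p: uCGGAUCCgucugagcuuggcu
mmu-miR-434-5p: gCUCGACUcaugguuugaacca
mmu-miR-434-3p: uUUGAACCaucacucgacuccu
mmu-miR-432: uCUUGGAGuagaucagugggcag
mmu-miR-136-5p: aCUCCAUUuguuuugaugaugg
mmu-miR-136-3p: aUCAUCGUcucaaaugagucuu
The 11 seeds are all distinct, and 0 of them are shared with another mature microRNA of the locus. The kit used does not mark strand, and the counting settings for strand are not given in the sources used here. Values of Rtl1 below are therefore counts on its coding part that may come from either strand. The row 6430411K18Rik, at 109591537 to 109592851, and the microRNA rows in that coding part had 0 counts in all libraries. How reads on overlapping rows were counted is not given, so reads shared with those rows may be missing from Rtl1. Its TPM still uses the full 5235 bp.

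Meg3 had the most counts of the locus in every library and the largest difference between the groups in CPM. It had 2130 and 5921 counts in SRF-OE replicates 2 and 3 and 60 and 36 counts in GFP replicates 2 and 3. These correspond to 123 and 259 CPM in SRF-OE against 2.75 and 2.84 CPM in GFP replicates 2 and 3, with 67.1 CPM in the library labelled GFP1. Both SRF-OE libraries were above all 3 GFP libraries, and the library labelled GFP1 stood between the groups. SRF-OE averaged 191 ± 95.9 CPM (SD, n = 2), the 3 GFP libraries averaged 24.2 ± 37.1 CPM (SD, n = 3), with a fitted log2 fold change of 2.96 (standard error 1.30). Without the library labelled GFP1 the control mean was 2.79 ± 0.0631 CPM (SD, n = 2) and the log2 fold change was 6.10 (standard error 0.43). The library labelled GFP1 thus had 24 times the mean of the other GFP libraries. The fold between SRF-OE and GFP was 44.7 within replicate 2, from female mice by Xist, and 91.1 within replicate 3, from male mice. In a bulk sample, fewer cells with the RNA and less RNA in each cell cannot be told apart.

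Rian, downstream of Meg3 on the same strand, followed Meg3 in direction, with fewer counts in every library. It was 3.41 and 8.04 CPM in SRF-OE, 1.85 CPM in the library labelled GFP1, and 0.688 and 0.946 CPM in GFP replicates 2 and 3. The groups did not overlap, and the order of the 5 libraries was that of Meg3 and of Srf itself. The means were 5.72 ± 3.27 CPM (SD, n = 2) and 1.16 ± 0.611 CPM (SD, n = 3), a log2 fold change of 2.29 (standard error 0.54), or 2.84 (standard error 0.54) without the library labelled GFP1. Inside Rian, the small nucleolar RNA row AF357425 was the other gene of the locus with 10 counts or more in all. It had 6 and 17 counts in SRF-OE, 6 in the library labelled GFP1, 1 in GFP replicate 2 and 0 in GFP replicate 3, and it overlaps Rian, so reads of one may have come from the other.

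Mirg, at the far end of the noncoding series, was rare. It had 6 and 34 counts in SRF-OE, 11 in the library labelled GFP1 and 1 in each of GFP replicates 2 and 3, that is 0.347 and 1.49 CPM against 0.522, 0.0458 and 0.0789 CPM. The groups overlapped through the library labelled GFP1, which exceeded SRF-OE replicate 2. The fitted log2 fold change was 2.01 (standard error 1.02) with 5 libraries. In the fit of 4 libraries Mirg did not pass the filter on low counts, and the ratio of summed counts, corrected for total counts, was 20 (exact 95% interval 5.2 to 171, counting error only). The microRNA rows of the locus held few counts in these polyA libraries. Many of these rows lie inside Rtl1, Rian or Mirg, and how reads on overlapping rows were counted is not given in the sources. Low counts on them therefore do not measure the precursors. Of 59 microRNA rows, 35 had 0 counts in all libraries, the highest total was 9 counts, and their sum per library was 5 to 22 counts.

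Among the genes of the paternal chromosome, Rtl1 differed most between libraries. It had 227 and 1348 counts in SRF-OE, 799 in the library labelled GFP1, and 6 and 1 in GFP replicates 2 and 3. On the CPM scale these were 13.1 and 58.9 in SRF-OE, 37.9 in the library labelled GFP1, and 0.275 and 0.0789 in GFP replicates 2 and 3. SRF-OE replicate 2 had 0.346 times the level of the library labelled GFP1, so the groups as labelled overlapped. With 5 libraries the log2 fold change was 1.48 (standard error 1.71). Without the library labelled GFP1 it was 7.45 (standard error 1.03), and the ratio of summed counts was 225 (exact 95% interval 109 to 562, counting error only). The value with 5 libraries also depended on SRF-OE replicate 3, without which it was 0.01.

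Dlk1 was near the limit of detection in every library. It had 11 and 5 counts in SRF-OE, and 4, 3 and 1 counts in the library labelled GFP1 and in GFP replicates 2 and 3. The levels were 0.635 and 0.218 CPM in SRF-OE against 0.19, 0.138 and 0.0789 CPM in GFP. The groups did not overlap, but SRF-OE replicate 3 and the library labelled GFP1 differed by 1 count, and Dlk1 did not pass the filter on low counts in either fit. The ratio of summed counts was 3.12 (exact 95% interval 1.26 to 8.42) with 5 libraries and 4.01 (1.29 to 16.5) without the library labelled GFP1. The intervals cover counting error only, treat amplified reads as independent, and are no test of a gene chosen from this contrast. Dlk1 was the member whose higher SRF-OE library was replicate 2, not replicate 3. That library also had the highest summed fibroblast markers, 925 CPM against 334 to 500 CPM in the others, and the highest mesothelial markers, 21.5 CPM against 4.4 to 5.37 CPM, and their part in the Dlk1 counts was not tested. Dio3 had 0 counts in all 5 libraries, and 3 counts, the upper limit that a count of 0 allows, would be 0.131 to 0.237 CPM.

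**Figure D1:**
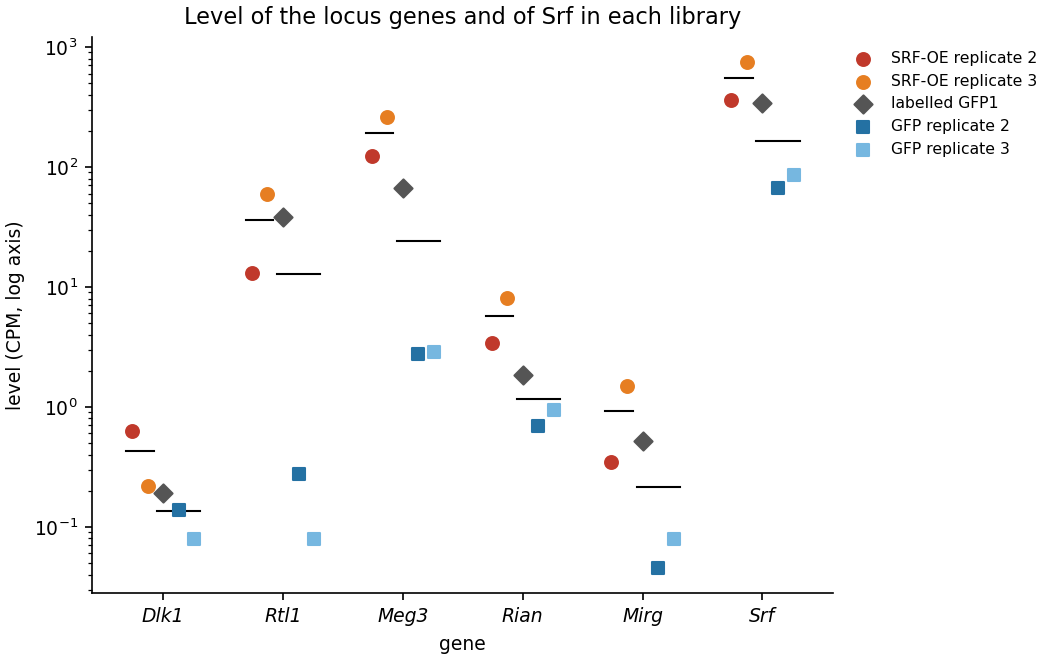
Level of the locus genes with counts and of Srf in each of the 5 libraries, in CPM on a log axis; circles are SRF-OE replicates, the diamond is the library labelled GFP1, squares are GFP replicates 2 and 3, and short lines are the group means as labelled. For Meg3 the 2 squares sit at 2.75 and 2.84 CPM and the 2 circles at 123 and 259 CPM, with the diamond between them, while for Rtl1 and Mirg the diamond lies between the 2 circles.

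In all, both SRF-OE libraries exceeded all 3 GFP libraries for 3 of the 6 genes, Meg3, Rian and Dlk1. Of the 13754 genes tested with 5 libraries, 16.1% had such a pattern. Both SRF-OE libraries exceeded GFP replicates 2 and 3 for 5 of the 6 genes, all but Dio3, against 30.8% of the 13397 genes tested without the library labelled GFP1. These contrasts chose the members, so nothing was read from the counts. With edgeR's quasi-likelihood test and the 5 libraries as labelled, 0 of 13754 genes (0%) were called higher and 0 (0%) lower at an adjusted p under 0.05, with 873 and 1044 at an unadjusted p under 0.05, together 13.9% of the genes. DESeq2, which gave an adjusted p to 1079 genes, called 11 of them (1.02%) higher and 213 (19.7%) lower. Without the library labelled GFP1, edgeR called 265 genes (1.98%) higher and 130 (0.97%) lower, and 28.3% of the genes had an unadjusted p under 0.05 in either direction. DESeq2 called 853 of 13521 genes (6.31%) higher and 833 (6.16%) lower. With GFP replicate 2 or GFP replicate 3 left out as well, edgeR's counts were 2 and 0 genes higher and 0 and 0 lower. In the order of log2 fold changes over the 13397 genes, Rtl1 was at place 8, Meg3 at place 17 and Rian at place 192. With the 5 libraries as labelled, Meg3 was at place 21 of 13754, Rian at 80, Mirg at 149 and Rtl1 at 368.

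Per length, the order of the genes was the same in both SRF-OE libraries. Meg3 was 19.8 and 42.4 TPM, Rtl1 5.21 and 23.8 TPM, Rian 1.98 and 4.76 TPM, Mirg 0.555 and 2.42 TPM and Dlk1 0.275 and 0.0961 TPM. Meg3 and Rtl1 overlapped in their ranges over the 2 libraries, as did Rian and Mirg, whereas Rtl1 lay above Rian and Mirg above Dlk1 in both. The library labelled GFP1 had another order, with Rtl1 (13.8 TPM) above Meg3 (9.91 TPM). In GFP replicates 2 and 3 all 5 detected genes lay between 0.0267 and 0.468 TPM, with Meg3 first in replicate 2 and Rian first in replicate 3. By rank among all genes of the table, Meg3 stood at place 3179 in SRF-OE replicate 3 and at place 13504 in GFP replicate 3.

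The make-up of the locus counts also differed between libraries. For each 100 counts on Meg3, Rian had 2.8 and 3.1 counts in SRF-OE, 2.8 in the library labelled GFP1, and 25 and 33.3 in GFP replicates 2 and 3. The share of Rian among the counts on the 6 genes was 2.42% (exact 95% interval 1.85 to 3.12) and 2.46% (2.12 to 2.83) in SRF-OE, and 1.72% (1.23 to 2.35) in the library labelled GFP1. It was 17.65% (10.23 to 27.43) and 23.53% (12.79 to 37.49) in GFP replicates 2 and 3. Rian thus kept a nearly fixed ratio to Meg3 in SRF-OE and in the library labelled GFP1 and took a larger share in GFP replicates 2 and 3, with intervals that did not meet those of the other libraries. Rtl1 did not keep such a ratio. It had 10.7 and 22.8 counts for each 100 on Meg3 in SRF-OE, 56.5 in the library labelled GFP1, and 10 and 2.8 in GFP replicates 2 and 3. Its share of the locus counts was 9.33% (8.2 to 10.56) in SRF-OE replicate 2, 17.99% (17.13 to 18.88) in SRF-OE replicate 3 and 35.26% (33.29 to 37.27) in the library labelled GFP1. These intervals cover counting error only and rest on 85 and 51 locus counts in GFP replicates 2 and 3, against 2266 to 7492 in the others.

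**Figure D2:**
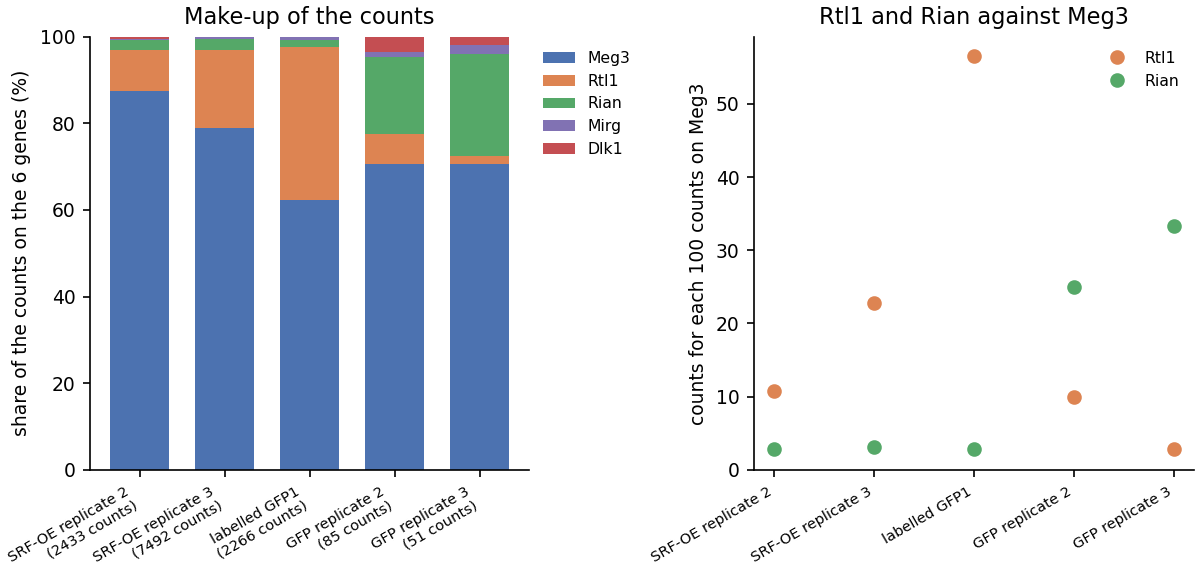
Left, share of the counts on the 6 genes (%) that fell on each gene, by library, with the number of counts under each bar; Dio3 had none. Right, counts on Rtl1 and on Rian for each 100 counts on Meg3, by library: Rian is at 2.8 to 3.1 in SRF-OE and the library labelled GFP1 and at 25 and 33.3 in GFP replicates 2 and 3, while Rtl1 ranges from 2.8 to 56.5.

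Genes on both sides of the imprinted region lay closer to 0 than its tested members. The members were chosen from this contrast and the flanking genes by place, so the gap between them is a description and no test. The table holds 26 genes within 1 Mb on either side, of which 22 were tested with 5 libraries and 21 without the library labelled GFP1. By edgeR's quasi-likelihood test, 0 were called in either direction in both fits. At an unadjusted p under 0.05 there were 2 (9.09%) with 5 libraries, against 13.9% of all genes. Without the library labelled GFP1 there were 6 (28.6%), against 28.3% of all genes. DESeq2 called 0 with 5 libraries and 1 higher and 1 lower without the library labelled GFP1. Over all genes in the latter fit it called 6.31% higher and 6.16% lower. The median log2 fold change was -0.04 with 5 libraries and -0.02 without the library labelled GFP1, against 0.03 and 0.04 over all genes tested. Without the library labelled GFP1 the flanking genes ran from -0.87 for Slc25a29, a mitochondrial carrier, to 1.55 for B930059L03Rik. The smallest p was that of the heat shock protein gene Hsp90aa1, whose level was 114 and 217 CPM in SRF-OE, 127 CPM in the library labelled GFP1, and 58.7 and 74.1 CPM in GFP replicates 2 and 3. It differed by 1.33 on the log2 scale without the library labelled GFP1 (standard error 0.31, adjusted p = 0.066, edgeR quasi-likelihood) and by 0.93 with 5 libraries (adjusted p = 0.36). Ankrd9 came next, at -0.86 (standard error 0.25, adjusted p = 0.092, edgeR quasi-likelihood) and at -0.64 with 5 libraries (adjusted p = 0.40).

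**Figure D3:**
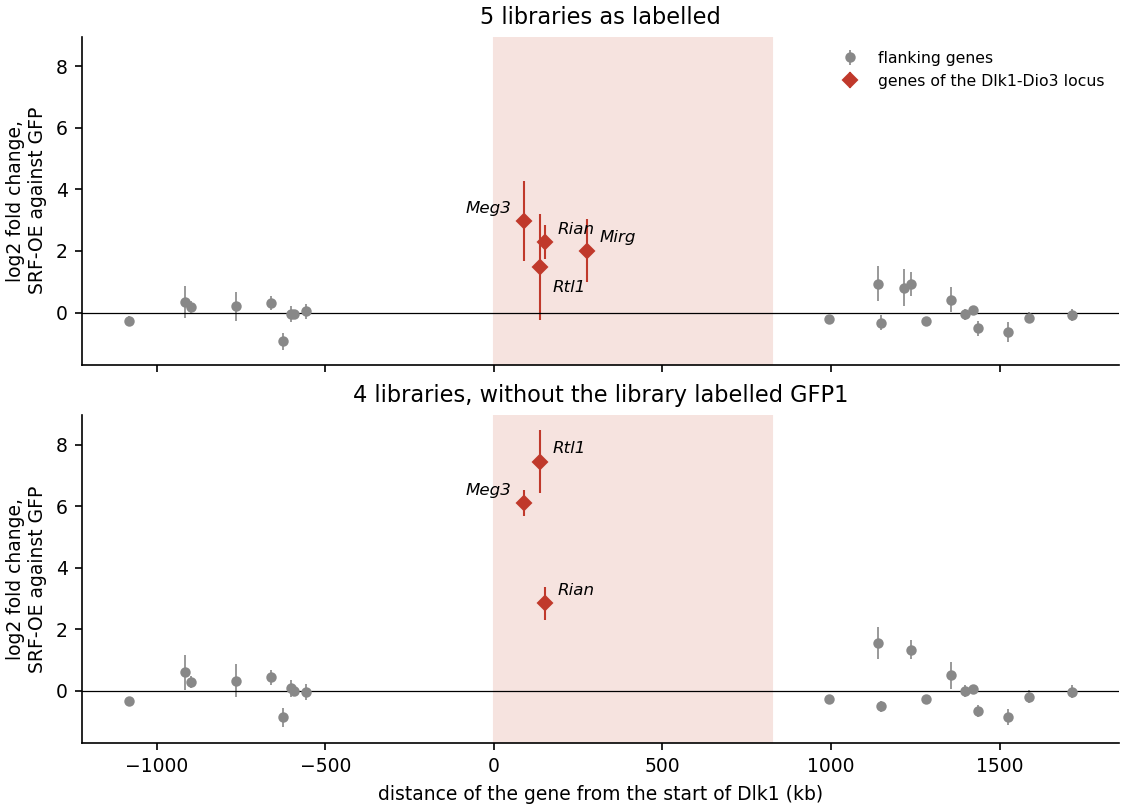
Log2 fold change, SRF-OE against GFP, with its standard error, for tested genes of the locus (red diamonds) and for genes within 1 Mb of it (grey points), by distance from the start of Dlk1 in kb; the shaded band is the locus, the upper panel has 5 libraries and the lower panel 4. In the lower panel Meg3, Rtl1 and Rian are at 6.10, 7.45 and 2.84, and the flanking genes lie between -0.87 and 1.55. The locus genes were chosen from this contrast and the flanking genes by place.

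The start of Meg3 is shown because this gene had the most counts. SRF binds the CArG box, and MEF2 factors bind a related AT-rich site. Both were searched on both strands, with the letters TATAAA and TGACGTCA (a cAMP response element), in RefSeq windows of GRCm38.p6 from 250 bases before to 50 bases after each start site. Windows of 5 of the 6 members, 6 in all, were found in that table. Rtl1 had none there. The window of the main Meg3 start, at chr12:109540746-109541045 on the plus strand, has TGACGTCA at 57 bases before the start and TATAAA on both strands, overlapping, at 29 and 25 bases before it (capitals).
Meg3, main start: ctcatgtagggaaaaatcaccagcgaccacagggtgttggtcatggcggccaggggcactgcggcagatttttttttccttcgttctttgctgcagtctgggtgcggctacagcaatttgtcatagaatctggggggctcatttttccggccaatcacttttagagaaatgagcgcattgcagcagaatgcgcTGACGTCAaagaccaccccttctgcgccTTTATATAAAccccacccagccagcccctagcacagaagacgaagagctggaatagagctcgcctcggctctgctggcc
It holds no match to the CArG box or the MEF2 site. A later start inside the gene, with its window at chr12:109545148-109545447 on the plus strand, has a CArG box at 94 bases before the start (capitals).
Meg3, later start: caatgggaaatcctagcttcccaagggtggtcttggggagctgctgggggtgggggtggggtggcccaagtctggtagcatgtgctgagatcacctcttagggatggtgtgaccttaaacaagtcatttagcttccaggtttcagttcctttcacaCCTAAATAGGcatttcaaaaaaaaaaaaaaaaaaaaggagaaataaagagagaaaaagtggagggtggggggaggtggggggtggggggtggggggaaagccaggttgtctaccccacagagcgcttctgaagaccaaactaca
The windows of Dlk1, Rian and Mirg hold none of the searched motifs, and that of Dio3 holds TATAAA at 31 bases before the start. Over 32851 windows of 27025 genes, 1.63% have a CArG box, 3.19% a MEF2 site, 13.6% TATAAA and 1.79% TGACGTCA. A match describes letters and not binding.

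Outside the locus, the profiles most like each member over the 5 libraries were found by the root mean square difference of log2 CPM (prior count 2), each gene centred on its mean, among 8521 or 8522 genes with at least 10 CPM on average. For Meg3 they were Ptgs2 (a prostaglandin synthase), Synm (an intermediate filament protein), Krt18 (a keratin), Rarres2 and 2310005G13Rik, at differences of 0.50 to 0.70, against a median of 2.78 over all genes compared. Ptgs2 was 11.5 and 38 CPM in SRF-OE, 18.5 CPM in the library labelled GFP1, and 0.321 and 0.315 CPM in GFP replicates 2 and 3. For Rtl1 the closest was Sypl2, a synaptophysin-like protein of the muscle triad, at a difference of 0.26, with 30.8 and 136 CPM in SRF-OE, 83.6 CPM in the library labelled GFP1, and 0.963 and 0.552 CPM in GFP replicates 2 and 3. Sprr1a, Krt18, Ptgs2 and Procr followed. Krt18 and Ptgs2 were thus close to both Meg3 and Rtl1, which differed from each other by 1.08.

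Rian was most like Tagln, the smooth muscle protein transgelin, at a difference of 0.15. Tagln was 36.2 and 83.4 CPM in SRF-OE, 20.2 CPM in the library labelled GFP1, and 6.14 and 10 CPM in GFP replicates 2 and 3. Lpin3, Sfxn3, Pdlim7 (a LIM domain protein of actin filaments) and Cdkn1a (a cell cycle inhibitor) followed at 0.25 to 0.32. Mirg was most like Tgm2 (a transglutaminase), Slc22a4, Qsox1, Marveld1 and Abcb4, at 0.17 to 0.22. With a smaller prior count, 4 of the 5 genes were shared for Meg3, Rtl1 and Rian and 0 of 5 for Mirg, whose counts were few. Rian and Mirg differed from each other by 0.42 and from Rtl1 by 2.52 and 2.35. With 1 to 34 counts a library, the differences of Mirg also rest on the prior count of 2. The library labelled GFP1 was above SRF-OE replicate 2 for Mirg and below it for Rian. The 5 points of each profile are the same libraries, and 3 of them had at least 338 CPM of Srf.

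**Figure D4:**
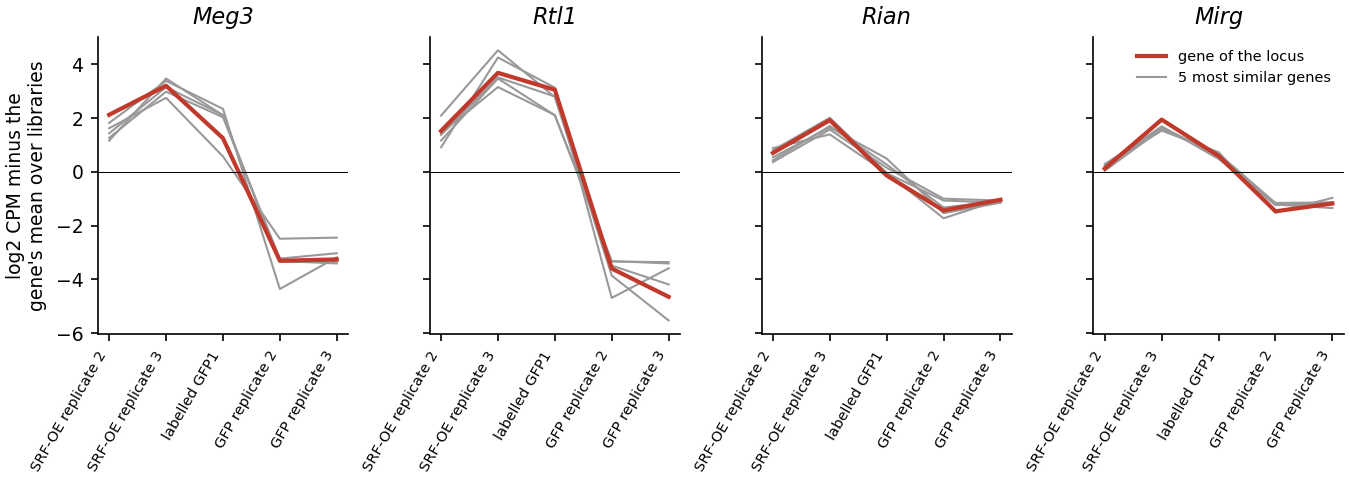
Log2 CPM minus the gene's mean over the libraries, for Meg3, Rtl1, Rian and Mirg (red) and the 5 genes with the most similar profile (grey), in each of the 5 libraries; lines join the libraries only to be followed by eye. In all 4 panels SRF-OE replicate 3 is highest and GFP replicates 2 and 3 are lowest, and the library labelled GFP1 is nearer to SRF-OE for Rtl1 than for Rian.

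Genes that act in the pathways of the members were described next. Of the Notch pathway, in which Dlk1 takes part as an atypical ligand, 28 genes were tested with 5 libraries and 27 without the library labelled GFP1, and edgeR called 0 in both. At an unadjusted p under 0.05 there were 1 and 5 (3.57% and 18.5%, against 13.9% and 28.3% of all genes). DESeq2 called 0 with 5 libraries and 2 higher without the library labelled GFP1, where it called 6.31% of all genes higher. The median log2 fold changes were 0.14 and 0.24, against 0.03 and 0.04 over all genes. Numbl, an inhibitor of Notch signalling, had the smallest p, with 3.87 and 5.42 CPM in SRF-OE against 1.42 and 1.58 CPM in GFP replicates 2 and 3 (log2 fold change 1.64, standard error 0.35, adjusted p = 0.059, edgeR quasi-likelihood). It was 3.99 CPM in the library labelled GFP1, between the SRF-OE libraries, and the log2 fold change with 5 libraries was 0.98 (adjusted p = 0.40). The receptor Notch3, also a mural cell marker, was 35.2 and 23.3 CPM in SRF-OE against 28.4 CPM in the library labelled GFP1, between the SRF-OE libraries, and 16 and 16.4 CPM in GFP replicates 2 and 3. The adjusted p of Notch3 was 0.080 in the fit of 4 libraries and 0.45 with 5 libraries (edgeR quasi-likelihood).

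Of the genes of thyroid hormone transport, receptors and targets, 22 were tested and edgeR called 0 in both fits. At an unadjusted p under 0.05 there were 6 and 9 (27.3% and 40.9%, against 13.9% and 28.3% of all genes). DESeq2 called 2 lower with 5 libraries, where it called 19.7% of all genes with an adjusted p lower. Without the library labelled GFP1 it called 1 higher and 6 lower, against 6.31% and 6.16% of all genes. The medians were 0.03 and -0.01. The receptor partner Rxrg was 66.3 and 56.4 CPM in SRF-OE, 77.4 CPM in the library labelled GFP1, and 98.8 and 109 CPM in GFP replicates 2 and 3 (log2 fold change -0.75 without that library, standard error 0.14, adjusted p = 0.050, edgeR quasi-likelihood). With 5 libraries it was -0.63 (adjusted p = 0.35). Before rounding, the adjusted p of Rxrg in the fit of 4 libraries was not under the cutoff, so Rxrg was not called. The pacemaker channel gene Hcn2 was 39.6 and 45.6 CPM in SRF-OE, 56.5 CPM in the library labelled GFP1, and 66.3 and 79.7 CPM in GFP replicates 2 and 3 (adjusted p = 0.057 without that library and 0.35 with 5 libraries, edgeR quasi-likelihood).

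Of the genes that set or keep imprints, 22 were tested, edgeR called 0 in both fits, and the medians were -0.04 and 0.01. At an unadjusted p under 0.05 there were 2 and 6 (9.09% and 27.3%, against 13.9% and 28.3% of all genes). DESeq2 called 0 with 5 libraries and 1 lower without the library labelled GFP1, where it called 6.16% of all genes lower. The DNA methyltransferase gene Dnmt3a was 140 and 124 CPM in SRF-OE, 129 CPM in the library labelled GFP1, and 181 and 210 CPM in GFP replicates 2 and 3 (log2 fold change -0.56 without that library, standard error 0.13, adjusted p = 0.069, edgeR quasi-likelihood). The library labelled GFP1 lay between the SRF-OE libraries, and the fold change of Dnmt3a with 5 libraries was -0.39 (adjusted p = 0.42). Zfp445, a zinc finger protein that protects imprints, was 118 and 105 CPM in SRF-OE, 106 CPM in the library labelled GFP1, again between them, and 147 and 166 CPM in GFP replicates 2 and 3. Its log2 fold change was -0.48 without that library (adjusted p = 0.081) and -0.32 with 5 libraries (adjusted p = 0.47, edgeR quasi-likelihood). The MEF2 factors were 3 tested genes, with 0 called in both fits, 0 at an unadjusted p under 0.05 and 0 by DESeq2. Mef2d was 91.7 and 107 CPM in SRF-OE, 117 CPM in the library labelled GFP1 and 124 and 119 CPM in GFP replicates 2 and 3 (adjusted p = 0.21 without that library and 0.37 with 5 libraries, edgeR quasi-likelihood). For Mef2a these were 0.36 and 0.63.

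Relatives of Rtl1, the other genes derived from retrotransposon Gag sequences, were tested for 9 genes with 5 libraries and 8 without the library labelled GFP1. edgeR called 0 in both, with 0 and 1 at an unadjusted p under 0.05 (0% and 12.5%, against 13.9% and 28.3% of all genes). DESeq2 called 0 with 5 libraries and 1 higher without the library labelled GFP1, where it called 6.31% of all genes higher. The median log2 fold change was 0.28 in both fits. Peg10, itself imprinted and paternally expressed, was 1.04 and 3.32 CPM in SRF-OE, 1.33 CPM in the library labelled GFP1, and 0.0917 and 0.158 CPM in GFP replicates 2 and 3. Its difference was 4.16 on the log2 scale without that library (standard error 0.87, adjusted p = 0.059, edgeR quasi-likelihood) and 1.99 with 5 libraries (adjusted p = 0.41). Cxx1b was 20 and 17.8 CPM in SRF-OE, 17.8 CPM in the library labelled GFP1, and 15.3 and 16.2 CPM in GFP replicates 2 and 3 (adjusted p = 0.33 without that library and 0.55 with 5 libraries, edgeR quasi-likelihood).

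Of imprinted genes elsewhere in the genome, 32 were tested and 5 were called higher and 0 lower by edgeR without the library labelled GFP1, where 1.98% of all genes were called higher. At an unadjusted p under 0.05 there were 19 (59.4%, against 28.3% of all genes). With 5 libraries edgeR called 0, with 9 at an unadjusted p under 0.05 (28.1%, against 13.9% of all genes), and DESeq2 called 0. The median log2 fold change was 0.36 with 5 libraries and 0.35 without the library labelled GFP1, with 20 of 32 (62.5%) above 0 in each, against 53.3% and 53.2% of all genes. Cdkn1c, a cell cycle inhibitor, was 13.4 and 17.1 CPM in SRF-OE, 17.4 CPM in the library labelled GFP1 and 4.22 and 3.55 CPM in GFP replicates 2 and 3 (log2 fold change 1.97 without that library, standard error 0.24, adjusted p = 0.042, edgeR quasi-likelihood). The library labelled GFP1 was above both SRF-OE libraries for Cdkn1c, and the fold change with 5 libraries was 0.85 (adjusted p = 0.56). The growth factor gene Igf2 was 87.7 and 62.7 CPM in SRF-OE, 53.5 CPM in the library labelled GFP1 and 30.6 and 26.5 CPM in GFP replicates 2 and 3 (1.40 without that library, standard error 0.20, adjusted p = 0.047, edgeR quasi-likelihood, and 1.03 with 5 libraries, adjusted p = 0.35). The other called genes, named after their values were seen, were the noncoding RNAs Airn (1.31, and 1.04 with 5 libraries), Kcnq1ot1 (1.30 and 1.01) and Peg13 (1.13 and 0.71). Leaving out GFP replicate 2 or GFP replicate 3 as well ended all 5 calls, leaving out SRF-OE replicate 2 or 3 gave 12 or 10 higher and 5 or 2 lower, and DESeq2 called 9 higher and 2 lower. Over all genes in the fit of 4 libraries, DESeq2 called 6.31% higher and 6.16% lower. In edgeR's fit of 4 libraries Meg3 and Rtl1, at 6.10 and 7.45, lay above the largest of these fold changes, 4.16 for Peg10, and Rian at 2.84 lay below it. With 5 libraries Meg3, Rian and Mirg, at 2.96, 2.29 and 2.01, lay above Peg10 at 1.99, and Rtl1 at 1.48 lay below it. The members were chosen from this contrast, so their order is a description only.

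The summed CM markers given above were lower in SRF-OE and in the library labelled GFP1 than in GFP replicates 2 and 3, with 0 of the 10 called by edgeR in either fit. Markers of other cell types differed in their profiles, also within a list, and whether such cells had a part in the locus values was not tested. Meg3, Rtl1, Rian and Mirg were highest in replicate 3 of SRF-OE. That library had the lowest endothelial sum of the 5 libraries. Its fibroblast sum lay above GFP replicates 2 and 3 and below the library labelled GFP1. Summed fibroblast markers were 925 and 462 CPM in SRF-OE, 500 CPM in the library labelled GFP1 and 393 and 334 CPM in GFP replicates 2 and 3, with 0 of 10 at 0 and 1 of 10 (Ddr2) called higher by edgeR without the library labelled GFP1. Igf2 is also expressed in such cells. Endothelial markers were 808 and 316 CPM in SRF-OE, 618 CPM in the library labelled GFP1 and 343 and 361 CPM in GFP replicates 2 and 3, and leukocyte markers were 13.1 to 40.5 CPM in all libraries, with 0 of either list called. Mural markers summed to 1219 and 1038 CPM in SRF-OE, 1185 CPM in the library labelled GFP1 and 1560 and 2029 CPM in GFP replicates 2 and 3. Acta2 was the largest part of that sum, at 530 and 371 CPM in SRF-OE against 1017 and 1462 CPM in GFP replicates 2 and 3. Abcc9 was also lower in both SRF-OE libraries than in these 2 controls. Tagln, Cspg4, Rgs5, Cnn1 and Notch3 were higher than there, and Pdgfrb, Kcnj8 and Myh11 overlapped. Cspg4 was 103 and 180 CPM in SRF-OE, 139 CPM in the library labelled GFP1 and 55 and 63.7 CPM in the others. Of the 10, edgeR called Tagln higher and Acta2 lower in the fit of 4 libraries (adjusted p = 0.047 and 0.050) and 0 with 5 libraries (adjusted p = 0.35 and 0.36). Before rounding, the value of Acta2 in the fit of 4 libraries was just under the cutoff. Schwann cell markers were 1.95 to 4.22 CPM and erythroid markers 0.237 to 1.56 CPM, with Hba-a1 at 0 in all libraries.

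Skeletal muscle markers are given because Rtl1 is a gene of developing skeletal muscle. Their sum was 5051 and 13855 CPM in SRF-OE, 10158 CPM in the library labelled GFP1 and 4071 and 5110 CPM in GFP replicates 2 and 3. Most of the difference was Acta1, skeletal actin, at 2671 and 12348 CPM in SRF-OE, 7724 CPM in the library labelled GFP1 and 441 and 841 CPM in GFP replicates 2 and 3. Ckm, also of this list, went the other way, at 2366 and 1478 CPM in SRF-OE and 2404 CPM in the library labelled GFP1. In GFP replicates 2 and 3 Ckm was 3624 and 4262 CPM. Tnni2 was 4.19 to 8.17 CPM in all libraries, with the groups overlapping. Actn3 had 11 and 26 counts in SRF-OE, 20 in the library labelled GFP1, and 2 and 0 in GFP replicates 2 and 3. Myh8 had 29 and 18 counts in SRF-OE, 15 in the library labelled GFP1, and 9 and 2 in GFP replicates 2 and 3. Myh1, Myh3 and Myh4 had 1 to 11 counts a library, with the groups overlapping. Tnnt3, the fast skeletal troponin T and the 1 gene of this list called higher by edgeR without the library labelled GFP1, was 4.85 and 22.6 CPM in SRF-OE, 19.6 CPM in that library and 0.138 and 0.0789 CPM in the others. The defining myogenic factors were at or near 0, with Myod1, Myf5, Myog and Pax7 at 0 to 2 counts in every library. The part of other cell types in the values of Meg3, Rtl1, Rian and Mirg was not tested.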

How the data were processed

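Per the labels, the authors used STAR 2.5.3a and mm10 and deposited whole-number counts per gene from featureCounts (Subread 1.5.2), without normalization. In 1 column, headed as an SRF-OE library, the values are gene lengths in bp, and it served only as such, so a design for 6 libraries became one for 5. Columns were assigned by name, and 0 were left unused. Counts were tested with edgeR 4.0.16 (filterByExpr, TMM, glmQLFit, glmQLFTest) in R 4.3.3, with Benjamini-Hochberg adjustment over all genes tested and a cutoff of 0.05. Standard errors were derived from each log2 fold change and its quasi-likelihood F. A 0 was read with a limit of 3 counts, and exact 95% intervals come from scipy 1.17.1. Genes were placed by symbol or synonym in RefSeq (GRCm38), which held 98.8% of them. Positions of the members are from GENCODE M21, and sequences are from RefSeq tables. The fits were tested on simulated counts, where the share of false calls was above the cutoff with and without the library labelled GFP1.

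The members and lists were chosen with earlier results of these data known. Named genes are the members, Srf, other rows of the locus with at least 10 counts, the 5 most similar profiles of each tested member, and from each list up to 2 rises and 2 falls past the cutoff without the library labelled GFP1 or else the 2 with the smallest p. DESeq2 1.42.0, other scalings and filters, the replicate number as a block and leaving out libraries were alternatives.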

Additional observations from a re-analysis of the deposited data

How the results depend on the processing

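All 78 alternative log2 fold changes of the members were above 0, the lowest being 0.01 for Rtl1 without SRF-OE replicate 3. They reuse the libraries from which the members were chosen, so the shared sign is a description only. With the 5 libraries as labelled and each library left out in turn, Meg3 ran from 2.32 to 6.10, Rtl1 from 0.01 to 7.45, and Rian from 1.53 to 2.84. In these fits Mirg passed the filter only without SRF-OE replicate 2 (2.67) or GFP replicate 3 (1.71), and Dlk1, 1.52 without a filter, only without SRF-OE replicate 3 (2.11). Genes called higher then ran from 0 to 265 and lower from 0 to 130, and genes of the 7 lists called higher from 0 to 5. DESeq2 called 11 higher, 213 lower and 2 list genes lower.

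Replicate numbers are shared by the groups, but no source says that they mark a litter or a day, and with 2 pairs the numbers were not taken as a pairing. The correlation across genes of same-numbered libraries' deviations was 0.372 for replicate 2 and -0.06 for replicate 3 with 5 libraries. Without the library labelled GFP1 it was 0.202 for both, which must be equal when each group has 2 libraries. Replicates 2 and 3 also differed in sex, as given above. With the number as a block, the library labelled GFP1 is alone at its number and does not bear on the contrast, so the fit of 5 libraries also leaves it out in effect. There 582 genes were called higher and 432 lower, of them 12 and 4 in the lists, and Meg3 was 5.96, Rtl1 7.07 and Mirg 3.55. Without the library labelled GFP1, the block gave 547 higher and 393 lower, and 12 and 4 in the lists.

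The other alternatives without the library labelled GFP1 were chosen after seeing the data. Genes called higher (265) and lower (130) became 853 and 833 with DESeq2, 88 and 9 with upper quartile scaling, 1660 and 1303 without a filter, and 55 and 9 with at least 10 counts in every library. With DESeq2's size factors 206 were lower. Genes of the lists called higher (5) became 13, 3, 23 and 1 in the same order of settings. List genes called lower (0) became 10 with DESeq2, 1 with its size factors and 17 without a filter. With 1 further library left out, calls ran from 0 to 1640 higher and from 0 to 1638 lower, and in the lists from 0 to 21 and from 0 to 16. Meg3 then ran from 5.46 to 6.54, Rtl1 from 5.98 to 8.70 and Rian from 2.08 to 3.33. Mirg, 3.85 without a filter, ran from 3.44 to 4.52 over 3 such fits and did not pass the filter without SRF-OE replicate 3. Dlk1, 1.81 without a filter, ran from 1.54 to 2.40 over 3 and did not pass without SRF-OE replicate 2. The cause of these shifts was not tested. A fit that leaves 1 library in a group assumes that it varies like the other group. Depth limits Dlk1, Mirg and Dio3, with 0 to 34 counts a library.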
